A study of Mus musculus with 70 samples.

Results

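A single short object training session was compared with no training in mice that never had a running wheel. The comparison uses 20 of the 70 dorsal hippocampus RNA libraries of the series: 10 from sedentary mice and 10 from home cage mice, each library taken as 1 individually housed adult male mouse. Members were chosen by the exercise code and the training label. Both groups carry the code 0-0-0 (0 days of wheel running at first, 0 days of rest after it and 0 days of renewed running). The sedentary mice were trained for 3 min with a pair of identical objects in the object location memory (OLM) task, an acquisition session kept too short to be remembered later, and tissue was taken 1 h afterwards. The label of the home cage mice says that they had no OLM. Before training, the study handled its trained mice and habituated them to the empty chamber, and the sources used here do not say whether the home cage mice of these libraries were handled or habituated, nor at what time of day each was killed. These differences cannot be told apart from training. The other 50 libraries are those of the 5 running groups, all trained, and enter here only beside a few results. Each group had 5 libraries in each of 2 harvest cohorts.

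New places and objects activate hippocampal neurons, and within minutes these transcribe immediate early genes such as Fos, Egr1 and Arc, which are followed by effector genes acting at synapses. Handling, a new chamber and learning also release corticosterone, the glucocorticoid hormone of rodents. It binds the receptors Nr3c1 and Nr3c2, abundant in the hippocampus, which switch on genes such as Sgk1, Tsc22d3 and Per1 through palindromic DNA elements. Per1 is also a clock gene, and the clock genes Per1, Per2, Dbp and Ciart are driven by the factors Arntl (BMAL1) and Clock through E-boxes.

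Values are FPKM (fragments scaled to transcript length and to the mapped fragments of the library). Tests ran on 12994 of the 24346 genes, those averaging 1 FPKM or more in the 70 libraries, on the scale log2(FPKM + 0.1), which understates the change of low genes. A gene is called higher or lower here at an unadjusted limma p under 0.05, the threshold type the study used. With all 20 libraries 140 genes (1.08%) were higher in sedentary than in home cage and 159 (1.22%) were lower. These 299 calls are fewer than the 649.7 that a threshold of 0.05 gives by chance over 12994 independent genes without differences. No gene passed Benjamini-Hochberg adjustment (smallest adjusted p = 0.495, limma), and 48 genes had an unadjusted p under 0.01. Single calls below are therefore descriptions at an unadjusted threshold.

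One library stood apart. Sedentary replicate 6 lay below all other 19 libraries for 3041 genes and above all of them for 2664. The summed level of 14 markers of hippocampal excitatory neurons was 674 FPKM in this library, against 2464 to 3675 in the other sedentary libraries and 2233 to 3538 in home cage. Neurod6, a transcription factor of cortical and hippocampal pyramidal neurons, was at 2.45 FPKM there and at 130.1 to 235 in the other 9. Markers of striatum summed to 556 FPKM against at most 108 in the other sedentary libraries, and those of hypothalamus to 307 against at most 38.7. The defining markers of dorsal hippocampus are thus low in this library, which goes against its tissue label. The differences of single genes and lists are given with and without it; the fits that change a covariate, a cohort or the home cage libraries include it unless stated. Without it 170 genes (1.31%) were higher and 239 (1.84%) lower, with 0 after adjustment (smallest adjusted p = 0.782, limma), and 89 of the higher and 126 of the lower genes were called in both fits.

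Among 14 lists of genes by function, the glucocorticoid-responsive genes held the most calls. The lists were written with earlier results of these data known, so this order is only a description. Of 24 tested, 9 were higher and 0 lower in sedentary, where 1.08% of all genes were higher. The median log2 difference of the list was 0.12, against 0.0067 over all genes tested, and 19 of the 24 differences were positive. The 9 were Sgk1, Tsc22d3, Per1, Nfkbia, Cdkn1a, Ddit4, Arrdc2, Fam107a and Arl4d. Without sedentary replicate 6, 9 were higher and 1, Pdk4, was lower (median 0.18). Fkbp5 then joined the higher genes and Fam107a left them.

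**Figure D1:**
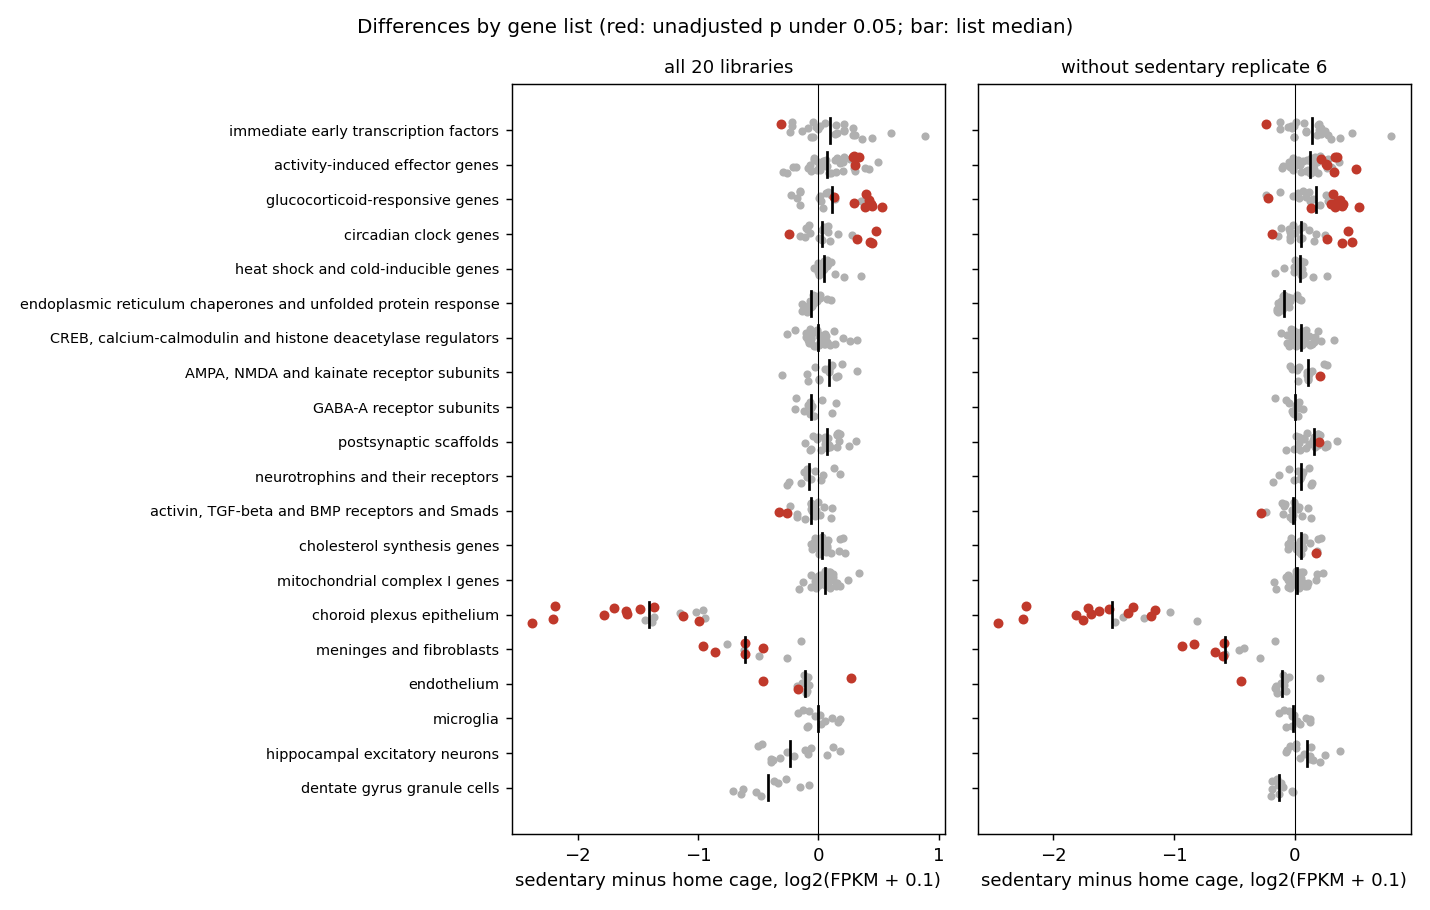
Differences of single genes (points, sedentary minus home cage on the log2(FPKM + 0.1) scale) by gene list, with all 20 libraries (left) and without sedentary replicate 6 (right); red points have an unadjusted limma p under 0.05 and black bars are list medians. Glucocorticoid-responsive genes hold 9 red points to the right of 0, choroid plexus genes 11 red points far to the left, and immediate early transcription factors a single one, Btg2, to the left.

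Sgk1, a kinase that regulates ion channels and receptor trafficking and a classical target of the glucocorticoid receptor, had the smallest p of all genes. Sgk1 measured 23.2, 27.9 and 41.8 FPKM (lowest, median and highest) in home cage and 34.6, 40.2 and 52.3 FPKM in sedentary. Every sedentary library lay above the home cage median, 4 lay above all home cage libraries, and the ranges overlapped. The mean was 29.5 ± 5.69 in home cage and 42.3 ± 6.09 FPKM in sedentary (SD, n = 10 each; log2 difference 0.53, SE 0.101, limma p = 3.81e-05). Without sedentary replicate 6 the log2 difference was 0.53 (p = 6.01e-05). It was 0.40 in harvest cohort 1 (limma p = 0.0244) and 0.65 in cohort 2 (limma p = 3.15e-04).

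Tsc22d3 encodes GILZ, a leucine zipper protein through which glucocorticoids restrain inflammatory signalling. Tsc22d3 measured 20.1, 26.5 and 31.9 FPKM (lowest, median and highest) in home cage and 27.5, 32.2 and 48.9 FPKM in sedentary. Of the sedentary libraries 6 exceeded every home cage library, and replicate 6 was the highest (log2 difference 0.39, SE 0.103, limma p = 0.00113; 0.33 without replicate 6). Nfkbia, the inhibitor that holds NF-kappa-B in the cytoplasm, showed the same arrangement. Nfkbia measured 7.68, 9.13 and 11.7 FPKM (lowest, median and highest) in home cage and 9.51, 13.1 and 16.4 FPKM in sedentary, with 6 sedentary libraries above all of home cage (log2 difference 0.44, SE 0.107, limma p = 5.32e-04; 0.40 without replicate 6). For Arrdc2, an arrestin-domain protein, 8 sedentary libraries lay above the whole home cage group. Arrdc2 measured 2.77, 3.71 and 4.39 FPKM (lowest, median and highest) in home cage and 3.62, 4.83 and 6.69 FPKM in sedentary (log2 difference 0.42, SE 0.111, limma p = 0.00101; 0.38 without replicate 6).

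The remaining called genes of the list overlapped more. Ddit4 (REDD1), an inhibitor of mTOR complex 1, had 3 sedentary libraries above home cage (20.3 to 34 FPKM in home cage and 21.8 to 45.4 in sedentary; log2 difference 0.30, SE 0.121, limma p = 0.0236; 0.34 without replicate 6). Cdkn1a encodes the cell cycle inhibitor p21 and spanned 3.32 to 5.56 FPKM in home cage and 4.17 to 12.8 in sedentary (log2 difference 0.42, SE 0.155, limma p = 0.0129), its highest value being that of replicate 6. Without that library its log2 difference was 0.30 (p = 0.0101). Arl4d, a small GTPase, spanned 6.05 to 12.5 FPKM in home cage and 7.53 to 18.1 in sedentary (log2 difference 0.39, SE 0.152, limma p = 0.0167; 0.32 without replicate 6). Fam107a was past the threshold with all libraries (p = 0.0484, limma) and not without replicate 6 (p = 0.0924).

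Other members of the list did not pass. Fkbp5, a co-chaperone of the receptor, had a log2 difference of 0.040 with all libraries (limma p = 0.706), with the value of 9.996 FPKM in replicate 6, below the home cage range of 15.4 to 19.9. Without it the difference was 0.14 (p = 0.0194). The metallothioneins Mt1 and Mt2, which bind zinc, ranged widely within both groups, Mt1 from 86.6 to 400.3 FPKM in home cage and 139 to 578 in sedentary (limma p = 0.205; 0.32 without replicate 6). The phosphatase gene Dusp1 had a log2 difference of 0.013 (limma p = 0.928; -0.017 without replicate 6). Of the receptors themselves, Nr3c1 had a difference of -0.15 (limma p = 0.0598; -0.12 without replicate 6) and Nr3c2 one of -0.15 (limma p = 0.498), or 0.070 without replicate 6.

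**Figure D2:**
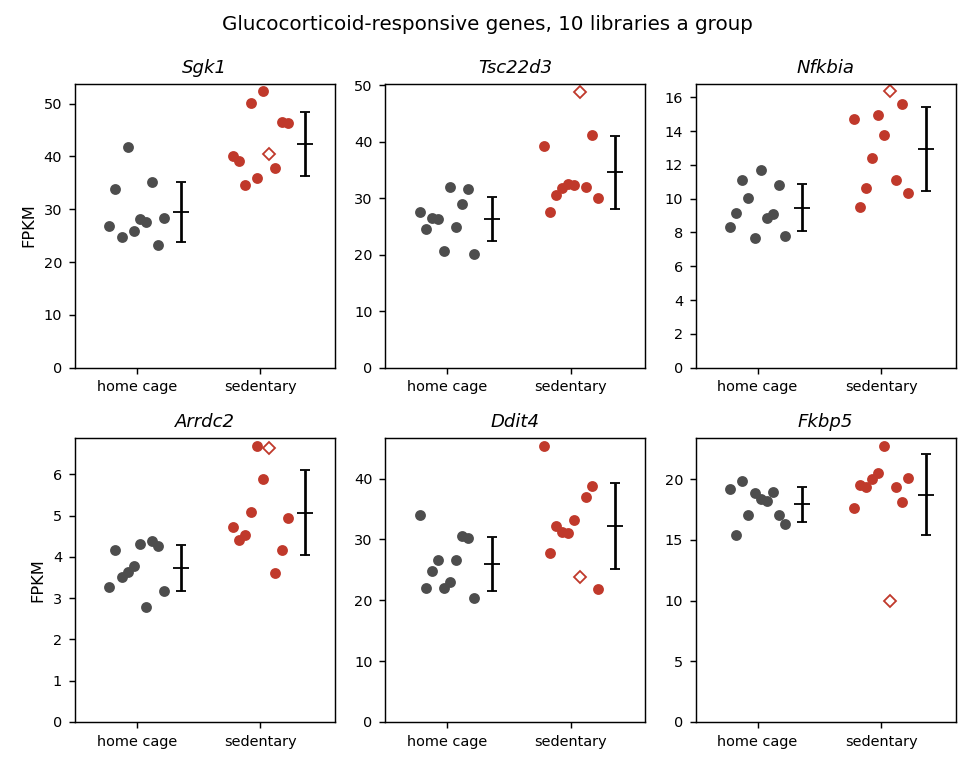
FPKM of 6 glucocorticoid-responsive genes in each home cage (grey) and sedentary (red) library, with the mean and SD of each group beside the points; the open diamond is sedentary replicate 6. Arrdc2 separates the groups most, with 8 sedentary libraries above all of home cage, while Fkbp5 overlaps and its lowest point is the diamond.

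Promoter sequences show which of these genes carry set spellings of known elements next to an annotated start. The 250 bases before each RefSeq start (build GRCm38.p6) were searched on both strands for the palindromic glucocorticoid response element (GNACA, a gap of 3 bases, TGTNC), the E-box CACGTG, the D-box TTATGNAA, the cAMP response element TGACGTCA and a kappa B site GGGNNTTCC. The shares of all 32851 such windows that hold them were 0.387%, 6.02%, 3.07%, 1.55% and 4.98%. Only these spellings were searched, so kappa B sites of another length or sequence were not counted. Sgk1 has 6 annotated starts, and only the window of 1 of them, inside an intron of longer Sgk1 transcripts, held the glucocorticoid element; FPKM per gene do not tell the starts apart. The windows of Sgk1, Per1 and Ciart are shown because they carry the elements of the 2 gene lists with the called genes named above, in capitals the glucocorticoid element of Sgk1 and the E-boxes of Per1 and Ciart, each 5′ to 3′ on the gene's own strand.
Sgk1, chr10:21993640-21993889, plus strand: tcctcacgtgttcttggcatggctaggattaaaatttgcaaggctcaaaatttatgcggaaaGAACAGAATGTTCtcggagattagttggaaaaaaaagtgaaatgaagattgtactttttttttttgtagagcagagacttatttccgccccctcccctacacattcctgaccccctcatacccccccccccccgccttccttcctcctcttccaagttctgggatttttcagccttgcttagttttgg
Per1, chr11:69098699-69098948, plus strand: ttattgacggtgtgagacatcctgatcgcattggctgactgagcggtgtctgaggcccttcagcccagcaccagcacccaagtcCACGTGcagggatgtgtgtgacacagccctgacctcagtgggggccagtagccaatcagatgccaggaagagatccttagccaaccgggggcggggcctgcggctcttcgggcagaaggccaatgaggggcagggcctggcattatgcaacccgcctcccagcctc
Ciart, chr3:95882229-95882478, minus strand: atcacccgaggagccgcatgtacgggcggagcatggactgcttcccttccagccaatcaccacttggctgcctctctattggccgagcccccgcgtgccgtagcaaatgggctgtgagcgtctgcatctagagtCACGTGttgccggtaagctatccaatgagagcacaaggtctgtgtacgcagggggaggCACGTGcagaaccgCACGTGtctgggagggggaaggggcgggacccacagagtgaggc
Entries were found for 14 of 16 genes looked up, all but Per2 and Mc4r. The Sgk1 element starts 188 bases before the start site, and an E-box lies at 246 bases. Per1 has 2 annotated starts. Only the window of 1 of them, shown here and lying inside another annotated Per1 transcript, held an E-box and a D-box. Ciart holds 3 E-boxes, at 116, 58 and 44 bases before its start. Its window also lies inside a transcript of C920021L13Rik on the other strand, and the sources used here name no stranded library kit, so reads where these genes overlap cannot be told apart. Fkbp5 holds an E-box and Arl4d holds a cAMP response element. None of the 5 motifs, as spelled above, was found in the windows of Nfkbia, Tsc22d3, Arrdc2, Ddit4, Cdkn1a, Dbp, Kdr, Prr5 and Plekhf1. Other spellings, such as longer kappa B sites, may be present there. No matches overlapped each other. These matches describe letters in a window and were not tested against the expression differences.

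Circadian clock genes held 4 higher and 1 lower of 22 tested, where 1.08% of all genes were higher and 1.22% lower. Their median log2 difference was 0.032, against 0.0067 over all genes. The same 5 genes were called without sedentary replicate 6 (median 0.048). The higher genes were the period genes Per1 and Per2, which repress the clock's activators, Dbp, a transcription factor of clock output, and Ciart (Chrono), a further repressor. The lower gene was Arntl, the activator.

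Per1 measured 7.99, 11 and 17.6 FPKM (lowest, median and highest) in home cage and 10.8, 15.8 and 22.6 FPKM in sedentary. The highest sedentary library was replicate 6, and 4 sedentary libraries exceeded the home cage range (log2 difference 0.45, SE 0.161, limma p = 0.0112; 0.39 without replicate 6). Per2 measured 3.8, 5.58 and 8.46 FPKM (lowest, median and highest) in home cage and 5.7, 7.18 and 10.7 FPKM in sedentary, and the groups overlapped except for 2 sedentary libraries (log2 difference 0.43, SE 0.136, limma p = 0.00491; 0.47 without replicate 6). Ciart separated the groups further, with 6 sedentary libraries above all of home cage. Ciart measured 2.76, 3.62 and 4.73 FPKM (lowest, median and highest) in home cage and 3.78, 4.96 and 7.6 FPKM in sedentary (log2 difference 0.48, SE 0.127, limma p = 0.00119; 0.44 without replicate 6).

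Dbp spanned 8.13 to 16.2 FPKM in home cage and 11.5 to 19.6 in sedentary (log2 difference 0.32, SE 0.12, limma p = 0.0152; 0.27 without replicate 6). Arntl spanned 9.69 to 16.7 FPKM in home cage and 8.22 to 13.9 in sedentary, and no sedentary library reached the home cage maximum (log2 difference -0.24, SE 0.0973, limma p = 0.0217; -0.18 without replicate 6). Its partner gene Clock had a log2 difference of -0.067 (limma p = 0.565; 0.0042 without replicate 6). The repressors Nr1d1 and Nr1d2 differed by 0.28 (limma p = 0.112; 0.25 without replicate 6) and 0.16 (limma p = 0.0864; 0.18 without replicate 6), and Per3 by 0.10 (limma p = 0.464; 0.16 without replicate 6). Tissue was taken in the light phase within a window of hours that the study gives for each day, and the hour of each library is not given in the sources used here, so hour and group cannot be told apart.

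Immediate early transcription factors, the usual readout of neuronal activation, held 0 higher and 1 lower of 26 tested with all 20 libraries and also without replicate 6. Over all genes 1.08% were higher and 1.22% lower, or 1.31% and 1.84% without replicate 6. The counts of this list are near those shares. Some alternative settings called a few of its genes higher, as listed in the last section. With the variance formula of Cyber-T, the program of the study's own tests, 3 of the 26 were higher. Over all genes 124 of 12994 were higher in that run. In the limma fits the median log2 difference of the list was 0.10, or 0.14 without replicate 6, against 0.0067 and 0.020 over all genes. Fos, a subunit of AP-1, overlapped between the groups and had a wider range in sedentary. Fos measured 2.53, 6.27 and 9.86 FPKM (lowest, median and highest) in home cage and 3.22, 6.1 and 16.3 FPKM in sedentary (log2 difference 0.36, SE 0.342, limma p = 0.305; 0.30 without replicate 6). The trained mice held the 3 highest values; the rest overlapped.

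Egr1, a zinc finger factor used as an activity marker in memory studies, also overlapped. Egr1 measured 33.8, 53.6 and 90.2 FPKM (lowest, median and highest) in home cage and 45.9, 69.4 and 99.7 FPKM in sedentary (log2 difference 0.30, SE 0.198, limma p = 0.138; 0.28 without replicate 6), with 3 sedentary libraries above the home cage maximum. Junb, another AP-1 subunit, had the largest positive difference of the list and also the widest spread, with 1.89 to 27.5 FPKM in home cage and 2.56 to 38.8 in sedentary (log2 difference 0.89, SE 0.563, limma p = 0.131; 0.80 without replicate 6). Arc, which organises the endocytosis of AMPA receptors, had a log2 difference of 0.11 (SE 0.334, limma p = 0.748; 0.13 without replicate 6) and spanned 19.3 to 73.8 FPKM in home cage and 20.9 to 109 in sedentary.

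Npas4, a factor induced by calcium influx, had a log2 difference of 0.21 (limma p = 0.311; 0.25 without replicate 6), and Fosb one of 0.44 (limma p = 0.0776; 0.38 without replicate 6). Btg2, an antiproliferative early gene, was the called one: 6.53 to 9.27 FPKM in home cage and 3.87 to 8.15 in sedentary, lower in sedentary (log2 difference -0.31, SE 0.125, limma p = 0.0227; -0.24 without replicate 6). The harvest cohorts gave different values for Fos, with a log2 difference of -0.094 in cohort 1 and 0.81 in cohort 2 (interaction p = 0.189, limma; 0.79 in cohort 2 without replicate 6). Over all genes, 55 (0.423%) had an unadjusted interaction p under 0.05 and 0 passed adjustment (limma). A p that misses the threshold does not show that these genes were equal, since the SE of Fos alone is 0.342 on the log2 scale.

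**Figure D3:**
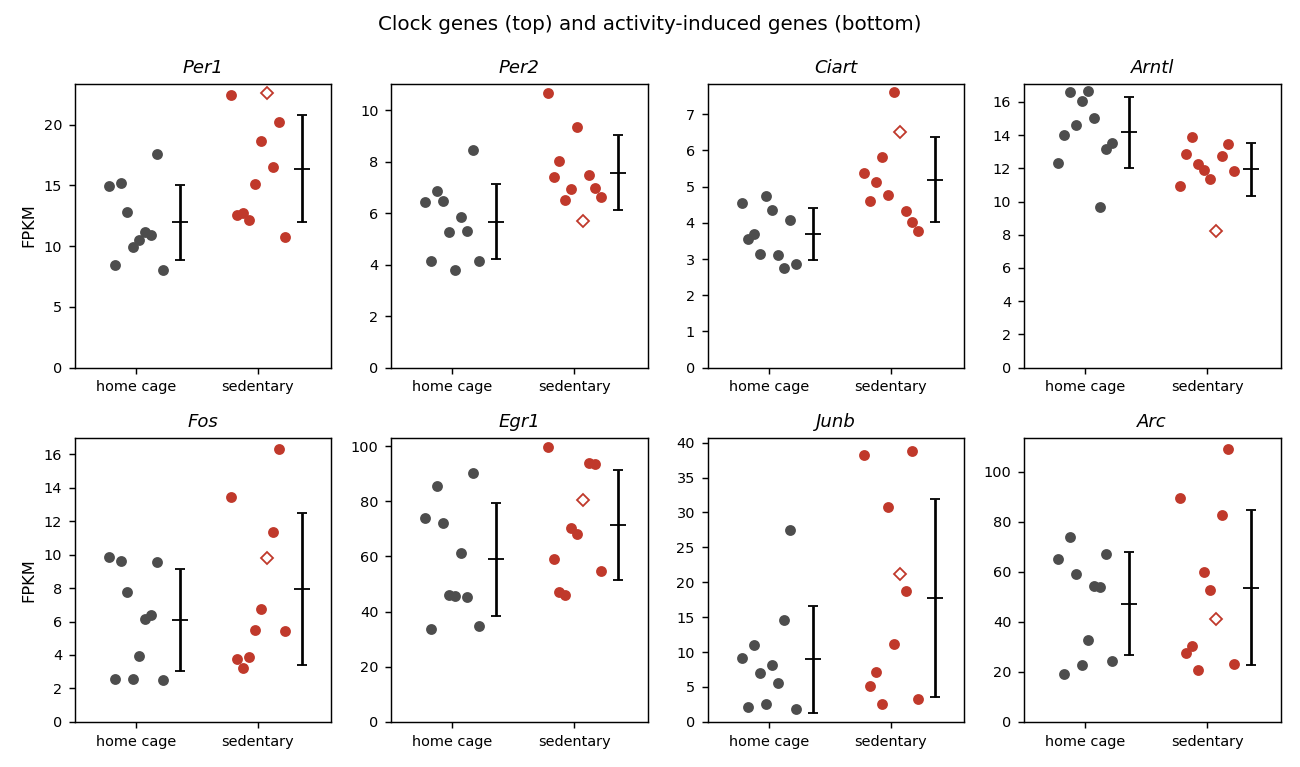
FPKM per library of 4 clock genes (top) and 4 activity-induced genes (bottom) in home cage (grey) and sedentary (red), with mean and SD; the open diamond is sedentary replicate 6. Ciart has 6 and Per1 4 sedentary points above all home cage points, whereas Fos, Egr1, Junb and Arc overlap over most of their range.

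Of 42 effector genes induced by activity, 4 were higher and 0 lower, where 1.08% of all genes were higher and 1.22% lower. Their median log2 difference was 0.069. Without replicate 6, 7 were higher and 0 lower, where 1.31% of all genes were higher. The median was then 0.13 against 0.020 over all genes. Rasd1 (Dexras1), a small G protein that dexamethasone also induces, was called in both fits. Rasd1 measured 24.8, 34 and 45.9 FPKM (lowest, median and highest) in home cage and 34.6, 41.2 and 56.1 FPKM in sedentary (log2 difference 0.31, SE 0.106, limma p = 0.00841; 0.26 without replicate 6). Amigo3 and Lingo3, cell surface proteins with leucine-rich repeats, were called in both fits too, with log2 differences of 0.34 and 0.29 (0.35 and 0.33 without replicate 6), and the kinase gene Pim3 only with all libraries (0.29, limma p = 0.0366; 0.21 without replicate 6).

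In each of the 4 genes that joined without replicate 6, that library was the lowest of its group. Nptx2, a secreted pentraxin that clusters AMPA receptors, was at 4.85 FPKM in replicate 6, with 12.5 to 22.9 in the other sedentary libraries and 10.1 to 17.5 in home cage (log2 difference without it 0.33 (p = 0.0145)). Dusp5, a phosphatase of ERK, differed by 0.51 (p = 0.0267) without replicate 6, Rasl11b by 0.26 (p = 0.00345) and Errfi1, an inhibitor of EGF receptors, by 0.22 (p = 0.00911).

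Bdnf, the growth factor studied for its part in exercise and memory, changed sign with that library. Bdnf measured 15.4, 18.2 and 20.7 FPKM (lowest, median and highest) in home cage and 1.18, 20.7 and 22.9 FPKM in sedentary (log2 difference -0.26, limma p = 0.496). Without replicate 6 it was 0.13 (p = 0.131), with 5 of 9 libraries above the home cage maximum. Acvr1c, a type I receptor of the activin family, spanned 2.13 to 4.73 FPKM in home cage and 1.3 to 4.64 in sedentary (log2 difference -0.18, SE 0.202, limma p = 0.39; -0.038 without replicate 6).

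Receptors, synaptic scaffolds and signalling enzymes held few or no calls. Over all genes 1.08% were higher and 1.22% lower with all libraries. Lists of this size with 0 calls are near those shares. With all libraries 0 genes were called of 36 CREB, calcium-calmodulin and histone deacetylase regulators, 15 AMPA, NMDA and kainate receptor subunits, 12 GABA-A receptor subunits, 24 postsynaptic scaffolds, 12 neurotrophins and their receptors, 23 cholesterol synthesis genes, 37 mitochondrial complex I genes, 18 heat shock and cold-inducible genes and 21 endoplasmic reticulum chaperone genes. Among the genes called higher without replicate 6 were the NMDA receptor subunit gene Grin1 (0.21 (p = 0.0415)) and the scaffold gene Dlgap2 (0.20 (p = 0.0362)). In that fit 1.31% of all genes were higher, and each was the 1 gene of its list called. Of 18 activin, TGF-beta and BMP receptors and Smads, 2 were lower with all libraries, Tgfbr2 and Tgfbr3, above the share of 1.22% of all genes. Tgfbr2 alone was lower without replicate 6, where 1.84% of all genes were lower.

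Outside the lists, the genes of smallest p among the higher ones included Prr5, a subunit of mTOR complex 2, Plekhf1, an endosomal protein, Mfsd2a, the lipid transporter of the blood-brain barrier, Camk1g, a calcium-calmodulin dependent kinase, and Mc4r, the melanocortin receptor. Prr5 measured 1.48, 2.12 and 2.79 FPKM (lowest, median and highest) in home cage and 2.02, 3.63 and 7.8 FPKM in sedentary, and 7 sedentary libraries lay above all of home cage (log2 difference 0.79, SE 0.188, limma p = 4.08e-04). Plekhf1 measured 0.787, 1.64 and 2.61 FPKM (lowest, median and highest) in home cage and 1.7, 3.03 and 7.61 FPKM in sedentary (log2 difference 0.97, SE 0.238, limma p = 5.63e-04). In both genes replicate 6 was by far the highest, and without it the log2 differences were 0.67 (p = 3.43e-04) and 0.83 (p = 7.21e-04).

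For Mc4r replicate 6 was the lowest sedentary library. Mc4r measured 1.15, 1.82 and 2.52 FPKM (lowest, median and highest) in home cage and 1.79, 2.38 and 2.94 FPKM in sedentary (log2 difference 0.41, SE 0.112, limma p = 0.00159; 0.45 without replicate 6). Mfsd2a spanned 7.79 to 11 FPKM in home cage and 8.95 to 12.4 in sedentary (log2 difference 0.25, SE 0.0639, limma p = 6.98e-04; 0.23 without replicate 6), and Camk1g 8.07 to 11.1 FPKM in home cage and 9.84 to 15.3 in sedentary (log2 difference 0.30, SE 0.0812, limma p = 0.00153; 0.29 without replicate 6). The genes of largest called difference in the higher direction were Mir1188, Snora75, Eif3j1 and Snora47. Of these, Mir1188, Snora75 and Snora47 are short RNA genes listed at 0 in many libraries, Snora75 and Snora47 in all of home cage. Eif3j1, a gene of an initiation factor subunit with the near-identical copy Eif3j2, was at 0.069 to 11.3 FPKM in home cage and 0.0601 to 11.9 in sedentary, with few values in between, and is given as uncertain because the copies can share reads (log2 difference 2.62, limma p = 0.0168; 2.31 without replicate 6). In the lower direction Mir6376, Amd2, Ttr, Kcnj13, Kcne2 and Wfdc2 were largest. Amd2, a near-identical copy of Amd1, is uncertain in the same way (log2 difference -2.86, limma p = 0.0106; -2.74 without replicate 6), and Ttr, Kcnj13 and Kcne2 are choroid plexus markers.

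Lower in sedentary were genes of the choroid plexus and the meninges, and single genes of vessels. Of 18 markers of choroid plexus epithelium, the tissue that makes cerebrospinal fluid, 11 were lower and 0 higher, where 1.22% of all genes were lower, and the median log2 difference was -1.41. Without replicate 6, 13 were lower (median -1.51). In the 5 running groups, also trained, the list's median against the same home cage libraries went both ways. It was 1.11 in 14-0-0 and 1.02 in 14-14-0, and -1.33 in 14-7-0, -0.76 in 14-7-2 and -0.69 in 0-0-2. Whether these values follow training was not tested. The markers summed to 146, 239 and 17639 FPKM (lowest, median and highest) in home cage and to 76.9 to 519.5 in sedentary. Ttr, the transthyretin gene, was at 3687, 15187 and 2495 FPKM in home cage replicates 1, 3 and 9 and at 59.6 to 301 in the other 7, against 15.5 to 344 in sedentary. The 3 home cage libraries alone lay outside the sedentary range.

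Without those 3 libraries, an alternative chosen after their values were seen, 1 choroid plexus gene was lower, and 58 genes in all were higher and 46 lower. Of 10 meningeal and fibroblast markers, 5 were lower with all libraries, where 1.22% of all genes were lower. Of these markers 0 were lower without home cage replicates 1, 3 and 9. Without sedentary replicate 6 the number lower was 5 as well, and Lum, Igf2 and Aldh1a2 were called in both fits. Igf2, a growth factor made in both tissues, spanned 10.8 to 156 FPKM in home cage and 8.74 to 22.8 in sedentary (log2 difference -0.96, SE 0.376, limma p = 0.0187; -0.93 without replicate 6). In such bulk samples fewer cells of a type and less RNA per cell cannot be told apart.

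Kdr (VEGFR2), the main receptor for VEGF on endothelium, had the smallest p of the lower genes. Kdr measured 3.19, 4.02 and 5.98 FPKM (lowest, median and highest) in home cage and 2.4, 3.02 and 3.43 FPKM in sedentary, and 8 sedentary libraries lay below every home cage library (log2 difference -0.46, SE 0.0993, limma p = 1.45e-04; -0.45 without replicate 6). The home cage libraries of highest Kdr were replicates 3 and 1, which also held the highest choroid plexus levels. Leaving out home cage replicates 1, 3 and 9, the log2 difference was -0.33 (limma p = 7.53e-04). Among all genes, with all 20 libraries, 1.22% were lower and 1.08% higher. Of 12 endothelial markers, Kdr and Pecam1 were lower and the glucose transporter gene Slc2a1 was higher, and the list's median was -0.11. Without sedentary replicate 6 Kdr alone was called (median -0.11): Pecam1 then had a log2 difference of -0.15 (p = 0.0735) and Slc2a1 one of 0.21 (p = 0.0903).

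Serping1, the inhibitor of complement C1, had 8 sedentary libraries below all of home cage. Serping1 measured 3.79, 4.74 and 6.11 FPKM (lowest, median and highest) in home cage and 2.47, 3.29 and 5.19 FPKM in sedentary (log2 difference -0.48, SE 0.127, limma p = 0.00106; -0.46 without replicate 6). Tgfbr2, the type II receptor for TGF-beta, did likewise. Tgfbr2 measured 4.77, 5.4 and 6.99 FPKM (lowest, median and highest) in home cage and 3.98, 4.7 and 5.2 FPKM in sedentary (log2 difference -0.26, SE 0.071, limma p = 0.00151; -0.28 without replicate 6 and -0.19 without home cage replicates 1, 3 and 9). Podxl, a sialomucin of endothelium, spanned 6.47 to 10.6 FPKM in home cage and 5.24 to 7.68 in sedentary (log2 difference -0.31, SE 0.0839, limma p = 0.00146; -0.27 without replicate 6), and Slc40a1, the iron exporter ferroportin, 3.94 to 5.54 FPKM in home cage and 2.61 to 4.75 in sedentary (log2 difference -0.31, SE 0.091, limma p = 0.00244; -0.26 without replicate 6).

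Cd74, the invariant chain of MHC class II, ranged over 1.49 to 6.75 FPKM in home cage and 0.882 to 2.78 in sedentary, and 6 sedentary libraries lay below the home cage minimum (log2 difference -0.89, SE 0.268, limma p = 0.00341; -0.99 without replicate 6). H2-Aa and H2-Ab1, chains of MHC class II that were looked up after Cd74 was seen, had log2 differences of -1.02 and -0.83, or -1.003 and -0.92 without replicate 6. Leaving out home cage replicates 1, 3 and 9, Cd74 had a log2 difference of -0.56 (limma p = 0.02). Of 12 microglial markers 0 were called (limma) with all 20 libraries or without replicate 6. This is near the share of all genes (1.08% higher and 1.22% lower with all 20 libraries).

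**Figure D4:**
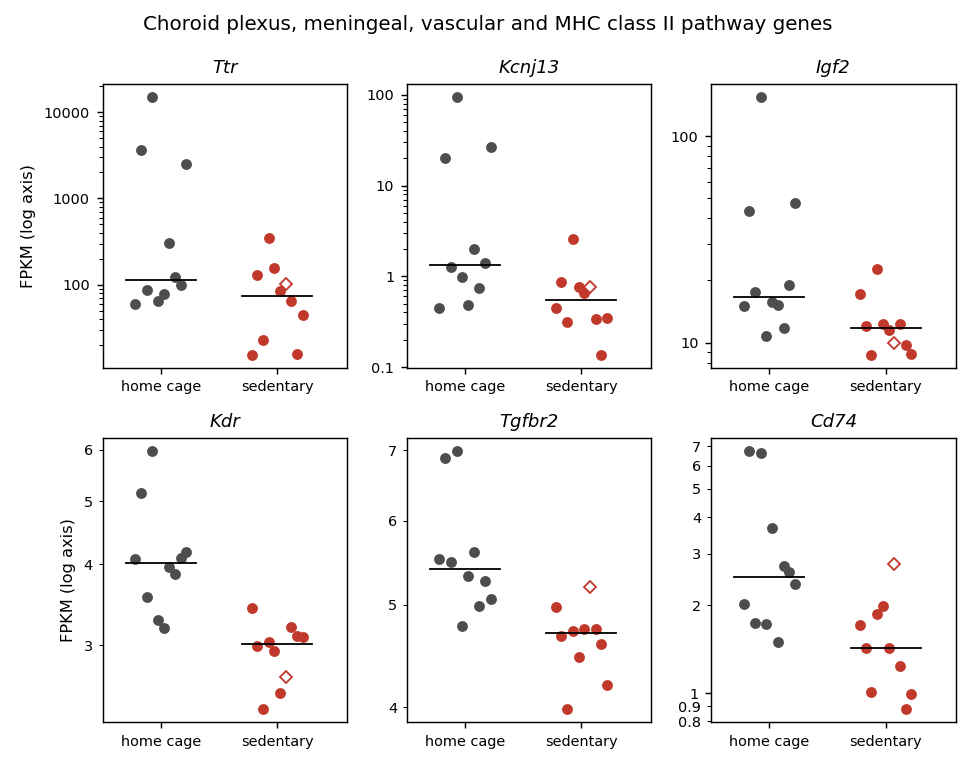
FPKM per library (log axis) of a choroid plexus pair (Ttr, Kcnj13), the meningeal gene Igf2, the receptors Kdr and Tgfbr2 and the MHC class II gene Cd74 in home cage (grey) and sedentary (red); bars are medians and the open diamond is sedentary replicate 6. For Ttr, Kcnj13 and Igf2 the 3 top home cage points stand far above the rest, whereas for Kdr 8 sedentary points lie below all home cage points.

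The choroid plexus level differed between the groups, so the higher genes are also given from a fit that includes the choroid plexus score. Sgk1 then had a log2 difference of 0.66 (limma p = 7.27e-07, the 1 gene past adjustment in that fit), Nfkbia 0.42 (limma p = 0.00249), Tsc22d3 0.34 (limma p = 0.00852) and Arrdc2 0.44 (limma p = 0.00239). Of the 9 called genes, 4 passed the threshold no longer: Per1 (log2 difference 0.34, limma p = 0.0695), Ddit4 (0.21, limma p = 0.133), Arl4d (0.35, limma p = 0.0557) and Fam107a (0.14, limma p = 0.0697). With the covariate 58 genes were higher and 57 lower.

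The running groups were trained like the sedentary group, and each was set against the same 10 home cage libraries. The comparisons share those libraries, so their values are given side by side and no likeness between them was tested. The log2 difference of Sgk1 was 0.53 in sedentary and 0.74 to 0.97 in the 5 running groups, that of Nfkbia 0.44 and 0.46 to 0.54, and that of Tsc22d3 0.39 and 0.28 to 0.42. Sgk1, Nfkbia, Tsc22d3, Arrdc2 and Mc4r passed the unadjusted threshold in each of the 6 comparisons (limma). The number of glucocorticoid-responsive genes higher, of 24, was 5 in 14-14-0, 11 in 14-7-2, 9 in 0-0-2, 12 in 14-7-0 and 11 in 14-0-0, where the shares of all genes higher were 0.916%, 5.02%, 3.12%, 2.75% and 5.06% in that order. The number lower was 2, 3, 1, 0 and 1 in the same order. The shares of all genes lower were 1.35%, 4.94%, 2.88%, 1.44% and 2.45%.

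The period genes had lower values in the running groups. Per1 had 0.00 to 0.21 and Per2 -0.03 to 0.23 there, with 0 of the 5 values of either gene past the threshold, and Ciart had -0.23 to 0.30, against 0.48 in sedentary. Fos was lower than home cage by value in each running group (-0.68 to -0.33), as was Arc (-0.70 to -0.40), and Npas4 passed the threshold in all 5 (-0.59 to -0.28). Of the 26 immediate early transcription factors 0 were higher in any running group, and the number lower was 4 in 14-14-0, 7 in 14-7-2, 4 in 0-0-2, 4 in 14-7-0 and 3 in 14-0-0, where 1.35%, 4.94%, 2.88%, 1.44% and 2.45% of all genes were lower in that order. Whether the sedentary values differ from those of the running groups was not tested.

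**Figure D5:**
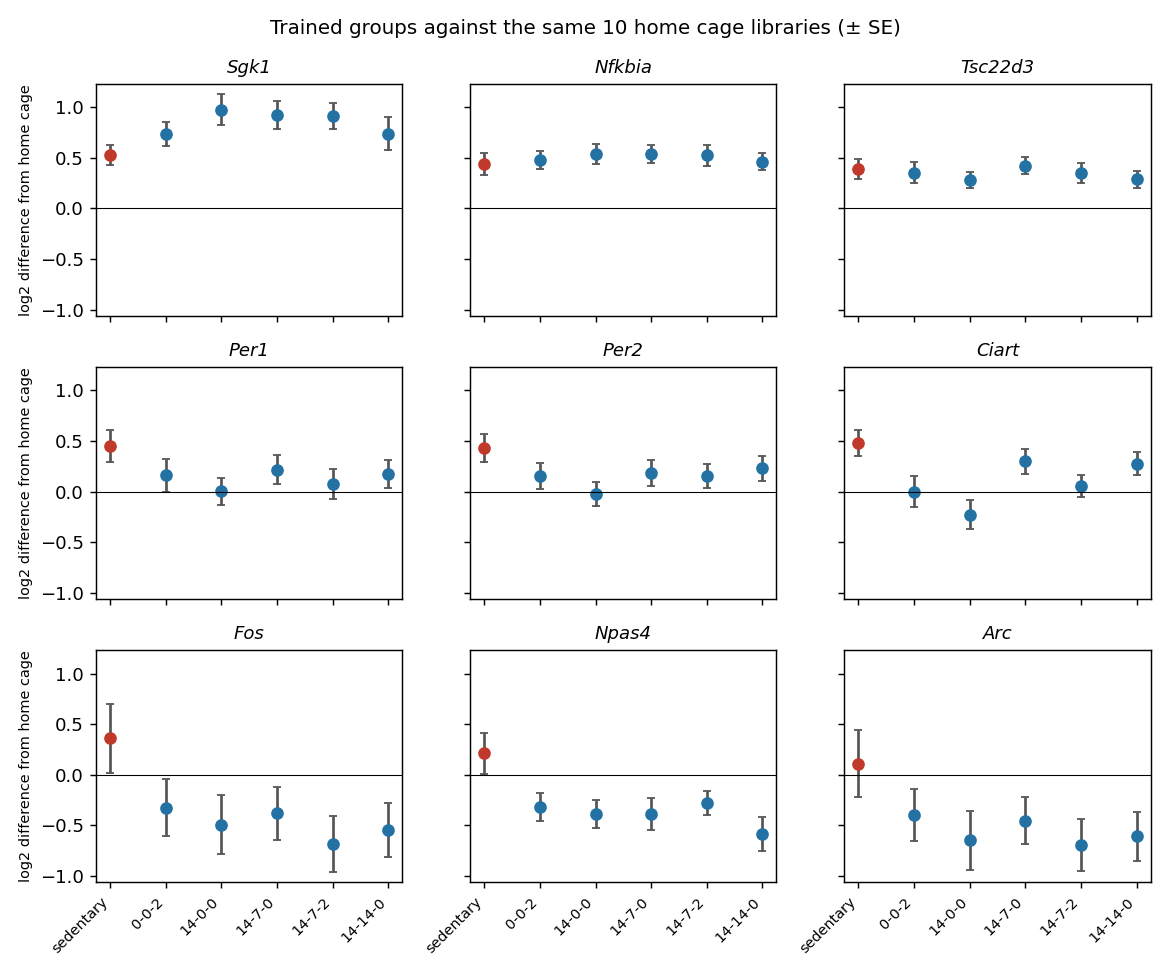
Log2 difference from the same 10 home cage libraries (± SE of the limma fit) for 9 genes in the sedentary group (red) and the 5 running groups (blue). Sgk1, Nfkbia and Tsc22d3 lie above 0 in all 6 groups, Per1 and Per2 are highest in sedentary, and Fos, Npas4 and Arc lie below 0 in the 5 running groups and above 0 in sedentary.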

How the data were processed

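FPKM of 24346 genes in 70 dorsal hippocampus libraries of adult male mice were used as deposited; the 10 sedentary and 10 home cage libraries are the subject. Per the methods of the study, RNA was extracted with RNeasy columns, libraries were made with a TruSeq kit from polyadenylated RNA and read as single reads. The authors aligned reads with ELAND v2e and Bowtie, kept uniquely aligned reads, and computed the deposited FPKM by the Tuxedo protocol; the submitters' processing notes name Bowtie, Cuffnorm and mm10, without versions. FPKM sums (382574 to 469206 in the 20 libraries) are not depths, and read counts were not used here. FPKM scale each library to its total, so one abundant gene can lower the others.

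Groups come from the submitters' labels, and each library was taken as 1 mouse. The 12994 genes averaging 1 FPKM or more in the 70 libraries were tested as log2(FPKM + 0.1) with limma 3.58.1 under R 4.3.3 (two-sided, trended prior, no covariates) on the 20 libraries, and again without sedentary replicate 6. Calls are at an unadjusted p under 0.05, as in the study, with Benjamini-Hochberg adjustment over 12994 genes. On simulated data of this comparison (12994 genes, 200 changed), 48 of 50 genes with a log2 change of 0.5 and 30 of 50 with 0.25 were called at that threshold. The effect of sedentary replicate 6 and of the choroid plexus level on these counts was not tested. How often genes of wide spread, such as Fos, would be called was not tested either.

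Genes named are the members of 14 function and 22 marker lists, Acvr1c and Bdnf, the 12 genes of smallest p and the 6 called genes of largest difference in each direction and fit, and 10 genes farthest below and above the other sedentary libraries in replicate 6. H2-Aa and H2-Ab1 were added after Cd74 was seen. The members and lists were chosen with earlier results of these data known. Alternatives were a pseudocount of 1, other minimum means, median ratio scaling, a joint fit of all 7 groups, quantile normalization, cohort and choroid plexus covariates, a replicate block, each cohort alone, p under 0.01, a robust prior, array weights, the Cyber-T formula (10 prior degrees of freedom, windows of 101 genes) and each library left out; leaving out home cage replicates 1, 3 and 9 or the 95 microRNA and small nucleolar RNA genes was chosen after seeing the data, as were the counts of 6 lists at p under 0.01. Promoter windows are from RefSeq (GRCm38.p6, the assembly of mm10), exon overlaps from GENCODE. Plots were made in Python 3.11.15 (matplotlib 3.10.9).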

Additional observations from a re-analysis of the deposited data

Results flagged for a closer look

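Outlying libraries were sought with Dixon's gap test in 108 sets of 10 libraries (the scores of 36 gene lists and the FPKM of 18 genes, in each group). For a score, each gene's log2(FPKM + 0.1) was centred on its average in the 70 libraries, and the centred values were averaged within the list. Chance flags about 1 in 20 such sets, and 19 were flagged, 16 of them for sedentary replicate 6.

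In that library the scores of hippocampal excitatory neurons (-2.86), dentate gyrus granule cells (-2.98), CA1 pyramidal cells (-1.82) and CREB, calcium-calmodulin and histone deacetylase regulators (-0.46) lay below those of the other 9 sedentary libraries. Its scores lay above them for striatum (3.19), hypothalamus (2.53), olfactory bulb (1.82), cerebellum (1.17), oligodendrocyte precursors (0.96), inhibitory neurons (0.94), thalamus (0.82), neocortex (0.61) and brainstem and midbrain (0.21). A score weights each gene alike: the summed level of the neocortex markers was instead the lowest of the 20 libraries there, at 78.4 FPKM against 105 to 164 in the other sedentary libraries and 87.9 to 137 in home cage. It held the highest sedentary FPKM of Prr5 (7.8) and Plekhf1 (7.61) and the lowest of Bdnf (1.18).

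Sedentary replicate 4 was flagged for a low score of GABA-A receptor subunits (-0.43) and a high score of microglia (0.34), and home cage replicate 7 for a low score of dentate gyrus granule cells (-1.11). Sedentary replicate 9 was not flagged, yet its score of dentate gyrus granule cells (-0.99) was the lowest sedentary one after replicate 6. Its score of CA2 and CA3 pyramidal cells (0.94) was the highest of the 20 libraries.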

How the results depend on the processing

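With all 20 libraries, the counts at an unadjusted limma p under 0.05 were 140 higher and 159 lower genes, 9 higher glucocorticoid-responsive genes, 0 higher immediate early factors, 4 higher effector genes, 4 higher clock genes, 11 lower choroid plexus genes and 5 lower meningeal genes. Counts that moved by over 1.5 times were as follows. With the replicate block there were 346 higher genes, 2 higher immediate early factors. With the replicate block and pair 6 left out there were 366 higher genes, 401 lower genes, 1 higher immediate early factors, 8 higher effector genes, 17 lower choroid plexus genes. With the choroid plexus covariate there were 58 higher genes, 57 lower genes, 2 higher effector genes, 0 lower choroid plexus genes, 0 lower meningeal genes. In cohort 1 alone there were 76 higher genes, 5 higher glucocorticoid-responsive genes, 0 higher effector genes, 0 lower choroid plexus genes, 1 lower meningeal genes. In cohort 2 alone there were 47 higher genes, 49 lower genes, 1 higher immediate early factors, 2 higher clock genes, 4 lower choroid plexus genes. In cohort 2 without sedentary library 6 there were 73 higher genes, 94 lower genes, 5 higher glucocorticoid-responsive genes, 8 higher effector genes, 1 higher clock genes, 5 lower choroid plexus genes. With array weights there were 377 higher genes, 290 lower genes, 8 higher effector genes, 5 lower choroid plexus genes. Without home cage libraries 1, 3 and 9 there were 58 higher genes, 46 lower genes, 5 higher glucocorticoid-responsive genes, 2 higher effector genes, 1 lower choroid plexus genes, 0 lower meningeal genes. At a minimum mean of 0.1 FPKM there were 295 lower genes. At a minimum mean of 5 FPKM there were 61 lower genes, 5 lower choroid plexus genes, 2 lower meningeal genes. With cohort as a covariate and sedentary library 6 left out there were 259 lower genes, 8 higher effector genes. At p under 0.01 there were 24 higher genes, 24 lower genes, 4 higher glucocorticoid-responsive genes, 1 higher effector genes, 2 higher clock genes, 1 lower choroid plexus genes, 1 lower meningeal genes. In the joint fit there were 2 higher immediate early factors, 2 lower choroid plexus genes. With the Cyber-T formula there were 3 higher immediate early factors. In the joint fit without sedentary library 6 there were 1 higher immediate early factors, 3 lower choroid plexus genes, 2 lower meningeal genes. After quantile normalization there were 2 higher effector genes, 6 lower choroid plexus genes. Their causes were not tested. Leaving out 1 library at a time gave 86 to 341 higher genes, 102 to 283 lower genes, 7 to 9 higher glucocorticoid-responsive genes, 0 to 2 higher immediate early factors, 1 to 7 higher effector genes, 4 to 5 higher clock genes, 4 to 14 lower choroid plexus genes, 2 to 8 lower meningeal genes. The higher genes numbered 86 without sedentary replicate 0, 341 without sedentary replicate 3, 256 without sedentary replicate 9, 252 without home cage replicate 7, 220 without home cage replicate 8, 93 without home cage replicate 9 and lower genes numbered 239 without sedentary replicate 6, 104 without home cage replicate 1, 102 without home cage replicate 3, 283 without home cage replicate 7. Interaction calls were 55 with all libraries, 46 without sedentary replicate 6 and 54 at a pseudocount of 1. Median ratio scaling turned the split to 99 higher and 219 lower. Besides the fit with the choroid plexus covariate, 2 settings had a gene past adjustment. It was 1 gene with array weights (smallest adjusted p = 0.0157, limma) and 1 without home cage replicate 3 (smallest adjusted p = 0.0344, limma). Same-numbered libraries are not stated to share an animal or day: 6 of 10 pairs correlated over 0.1 and 2 of 10 home cage libraries correlated best with their own number, so the replicate block is an alternative only. Directions that turned had these log2 differences. Cldn2 0.046 with the choroid plexus covariate. Enpp2 0.070 with the choroid plexus covariate. F5 0.078 with the choroid plexus covariate. Fos -0.094 in cohort 1 alone. Arc -0.12 with the choroid plexus covariate, -0.086 in cohort 1 alone, -0.030 without sedentary replicate 8, -0.018 without home cage replicate 1, -0.10 without home cage libraries 1, 3 and 9. Npas4 -0.017 in cohort 1 alone. Bdnf 0.15 with the replicate block and pair 6 left out, 0.059 in cohort 1 alone, 0.22 in cohort 2 without sedentary library 6, 0.13 with array weights, 0.14 with cohort as a covariate and sedentary library 6 left out, 0.13 in the joint fit without sedentary library 6, 0.13 without sedentary replicate 6. Acvr1c 0.0012 with the replicate block and pair 6 left out, 0.013 in cohort 2 without sedentary library 6. With 1 library left out at a time Arc spanned -0.030 to 0.23. With 1 library left out at a time Bdnf spanned -0.33 to 0.13. Sgk1, Nfkbia, Mc4r, Plekhf1, Prr5, Camk1g, Kdr, Serping1, Fzd6 and Cd74 stayed past the 0.05 threshold in each alternative run on single genes. Depth per library limits low genes: FPKM carry no counts, and depth estimated from the steps of low values, relative to 1 reference library, spanned 0.606 to 1.00.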
